A study of Homo sapiens with 4 samples.

Results

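Strong open regions of SKBR3 that were called in no other line of the study were described here. SKBR3 is an established breast cancer line, and its ATAC-seq list was compared with those of T47D, another breast cancer line, and of the colorectal cancer lines HCT116 and RKO. In ATAC-seq a transposase inserts adapters into accessible DNA, so a stack of tags marks open chromatin. All 4 lines are labelled WT for genotype, with no treatment named, and each is represented by 1 library; the media were McCoy's 5A for SKBR3 and HCT116, RPMI for T47D and DMEM for RKO. A peak was taken as strong when its pileup, the number of tags stacked at the summit, was at least 14. It was taken as SKBR3-only when no peak of T47D, HCT116 or RKO overlapped it by even 1 bp. On chromosomes 1 to 22, 28738 of the 108561 SKBR3 peaks were strong, and 5142 of these were SKBR3-only, which is 17.9% (exact 95% interval 17.5 to 18.3). The other 23596 strong peaks overlapped a peak of at least 1 other line and are called shared. The members were thus chosen by the SKBR3 pileup and by the absence of calls elsewhere, so neither is a finding, and a line without a call may still be accessible at that place.

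Regions open in 1 cell type and not in others are mostly distal elements such as enhancers, which often lie in groups around genes that define the cell, whereas promoters of widely used genes tend to be open in many cell types. Copy number also enters an ATAC-seq signal, because a segment present in many copies gives more tags from open and closed DNA alike. SKBR3 is known as a line with an amplified ERBB2 gene, which encodes the receptor tyrosine kinase HER2. In the RefSeq gene table STARD3, TCAP, PNMT and PGAP3 precede ERBB2 along chromosome 17, and MIEN1, GRB7, IKZF3 and ZPBP2 follow it. That table is of another genome build than the peak lists, so no peak was assigned to a gene, to a promoter or to its sequence, and positions are given in hg19 as deposited. Genes are placed below only as background knowledge and only to within 1 Mb.

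After removal of duplicate positions SKBR3 had 4313512 tags, T47D 5450100, RKO 3262240 and HCT116 1057628. A pileup of 14 in SKBR3 corresponds, by total tags alone, to 17.7 in T47D, 10.6 in RKO and 3.43 in HCT116, where the lowest pileup called was 2. Absence of a call in HCT116 therefore weighs least. The T47D list was made from an input called T45D in its header; it is treated as T47D because it was deposited under that sample. When the HCT116 list was left out of the rule, 5432 strong peaks (18.9%) were called in SKBR3 only. With 1 library per line no test between lines can be made, and the intervals given cover counting error only.

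The strong peaks that SKBR3 shared were mostly shared with T47D. Of the 28738 strong peaks, 11980 (41.7%) were called in all 3 other lines and 7212 (25.1%) in T47D and neither colorectal line. RKO alone accounted for 475 (1.65%) and HCT116 alone for 290 (1.01%). The SKBR3-only class was thus smaller than the class shared with T47D alone. At the same pileup of at least 14 in their own, unscaled libraries, 3148 of 32729 T47D peaks (9.62%), 1841 of 18048 RKO peaks (10.2%) and 110 of 5755 HCT116 peaks (1.91%) were called in that line only. The lists searched for overlaps were of unequal length. T47D had 75390 peaks of any strength on these chromosomes, RKO 64571 and HCT116 38941, against 108561 for SKBR3. The other lines were thus each searched against the longest list, and SKBR3 only against shorter ones. These shares are therefore not on an equal footing with the 17.9% of SKBR3, and the effect of list length was not tested.

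SKBR3-only peaks were weaker than shared ones within the same library. Their median pileup was 19 (interquartile range 16 to 24, highest 91), against 24 (18 to 33, highest 196) for shared peaks. Their median fold enrichment, the authors' ratio of pileup to local background, was 9.61 (6.79 to 11.96), against 11.7 (9.23 to 14.3). With shared peaks weighted to the pileups of the SKBR3-only peaks, the shared median fold was 10.8. The SKBR3-only share was lower at higher pileups: it was 30.1% of 2244 peaks at a pileup of 14, 25.3% of 8565 at 15 to 19, 17.4% of 9499 at 20 to 29, 8.56% of 6904 at 30 to 49 and 3.74% of 1526 at 50 or more. Pileup and the absence of other calls make up the rule, so strength is not independent of it. The threshold cut through no visible step. Just outside it, at a pileup of 13, 831 of 2729 peaks (30.5%) were SKBR3-only, with a median width of 251 bp and a median fold of 8.11. Just inside it, at 14, there were 676 such peaks, with a median width of 255 bp and a median fold of 8.19.

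The SKBR3-only peaks covered 1.73 Mb in all, against 10.1 Mb in shared strong peaks. They were narrower: the median width was 310 bp (interquartile range 234 to 406), against 388 bp (282 to 531) for shared peaks. Peaks under 200 bp made up 14.7% (13.7 to 15.7) of the SKBR3-only class and 6.73% (6.41 to 7.05) of the shared class, and peaks over 600 bp made up 5.31% and 16.8%. With shared peaks weighted to the same pileups, the shared median was 340 bp. Within every pileup class the SKBR3-only median was lower, from 255 against 270 bp at a pileup of 14 to 539 against 601 bp at 50 or more. A wide peak also meets an overlap of 1 bp more easily, so width is not independent of the rule. The same order held in T47D (227 bp for line-only peaks against 360 bp) and RKO (220 against 387 bp), and not in the 110 HCT116-only peaks (326 against 321 bp).

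**Figure D1:**
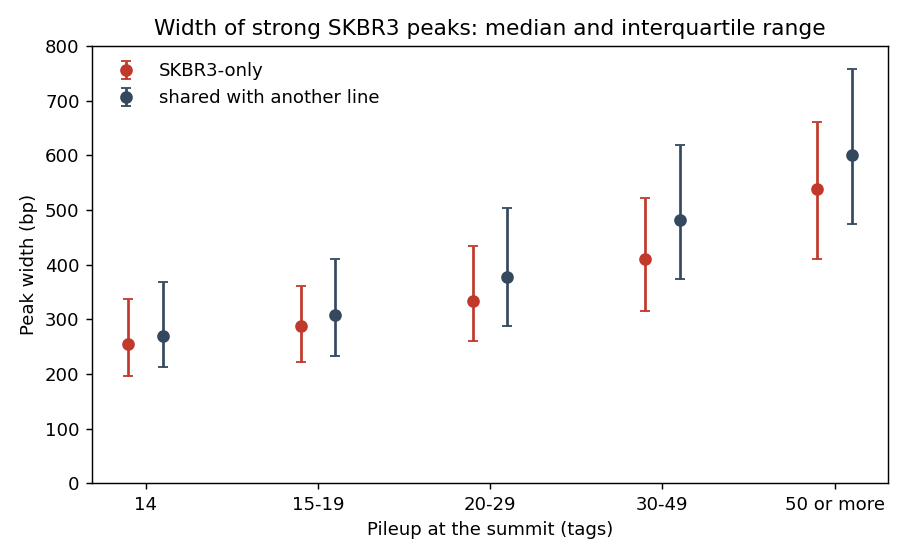
Width of strong SKBR3 peaks in bp (vertical) by pileup at the summit in tags (horizontal); points are medians and bars interquartile ranges over peaks of 1 library. SKBR3-only medians lie below the shared medians in all 5 classes, 255 against 270 bp in the first and 539 against 601 bp in the last, and the interquartile ranges overlap.

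SKBR3-only peaks were not spread over chromosomes as shared peaks were. Chromosome 8 had the highest SKBR3-only share of its strong peaks, 357 of 1340 (26.6%, 24.3 to 29.1). Chromosome 20 followed with 321 of 1339 (24.0%, 21.7 to 26.4), chromosome 7 with 448 of 1979 (22.6%, 20.8 to 24.5) and chromosome 2 with 388 of 1861 (20.8%, 19.02 to 22.8). Chromosome 19, which is rich in genes, had the lowest, 179 of 1617 (11.1%, 9.58 to 12.7). The interval lay above the 17.9% of all strong peaks on 5 chromosomes, below it on 8 and around it on 9. Chromosome 17, with 335 of 1826 (18.3%, 16.6 to 20.2), was near that share as a whole. Near chromosome ends, within 5 Mb of the outermost SKBR3 peaks, lay 12.2% (11.3 to 13.1) of SKBR3-only and 14.8% (14.3 to 15.2) of shared strong peaks.

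**Figure D2:**
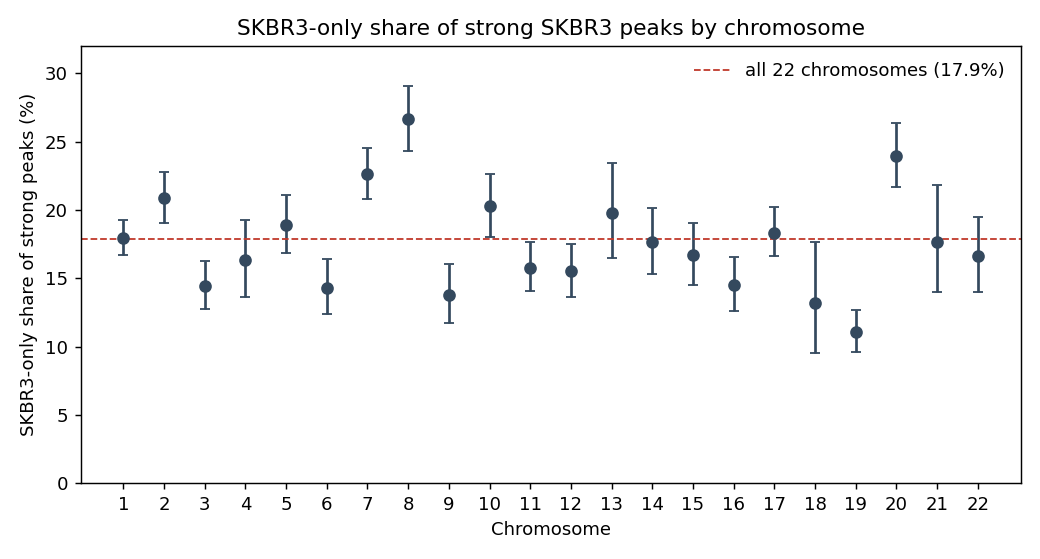
SKBR3-only share of strong SKBR3 peaks in percent (vertical) on each of 22 chromosomes (horizontal); points are shares with exact 95% intervals, and the dashed line marks the share over all of them, 17.9%. Chromosome 8 is highest at 26.6% and chromosome 19 lowest at 11.1%.

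On chromosome 8 the excess lay in blocks of the long arm. From 70 to 80 Mb 38 of 101 strong peaks (37.6%, 28.2 to 47.8) were SKBR3-only, and from 80 to 90 Mb 60 of 131 (45.8%, 37.1 to 54.7). Between 90 and 110 Mb the shares were 13.6% of 44 and 14.3% of 84, and they were again higher, at 38.5% of 130 from 110 to 120 Mb and at 38.1% of 349 from 120 to 130 Mb. From 140 to 150 Mb it was 8.55% of 152 (4.63 to 14.2). High and low blocks thus alternated along the arm. On chromosome 20 the block from 50 to 60 Mb was highest, with 86 of 248 (34.7%, 28.8 to 41.0), and on chromosome 17 the block from 30 to 40 Mb, with 65 of 277 (23.5%, 18.6 to 28.9).

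The local background under the SKBR3 peaks was then set beside these shares. It was computed back from each peak's pileup and fold, and adjusted for called signal within 5 kb. SKBR3 was then compared with the other lines in 1232 bins of 1 Mb, 58 of them on chromosome 8. Bins with fewer than 10 peaks in any line were not compared and so could not be called raised. This background is a proxy read from the peaks themselves, and copy number was not measured. In 9 bins SKBR3 exceeded the median of the other lines by more than 3 SD, which is 0.53 on the log2 scale. Of these, 7 lay on chromosome 8, at 71 to 72, 81 to 82, 86 to 87, 90 to 91, 121 to 122, 123 to 124 and 124 to 125 Mb. The others were chromosome 10, 46 to 47 Mb, and chromosome 17, 37 to 38 Mb, the interval that holds ERBB2. Because the median of the other lines was used, SKBR3 need not be highest in a raised bin. At 86 to 87 Mb of chromosome 8 the unadjusted median background was 5.20 times the lowest of its list in SKBR3 and 5.56 times in T47D. At 46 to 47 Mb of chromosome 10 it was 8.31 times in SKBR3 and 7.16 times in HCT116. The bins called raised only partly followed the blocks of high share. None was called from 110 to 120 Mb of chromosome 8 or on chromosome 20, among the bins compared there. In the block from 90 to 100 Mb, where the share was low, 1 was called.

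In these 9 bins 142 of 344 strong peaks (41.3%, 36.0 to 46.7) were SKBR3-only, against 5000 of 28394 (17.6%, 17.2 to 18.1) elsewhere, bins not compared included. The bins nevertheless held only 2.76% (2.33 to 3.25) of the SKBR3-only peaks, and 0.856% (0.742 to 0.982) of the shared ones. Most SKBR3-only peaks thus lay outside them. In the same bins 7 of 147 T47D peaks (4.76%, 1.94 to 9.57) with a pileup of at least 14 were called in T47D only, against 9.62% of all such T47D peaks. For RKO it was 9 of 79 (11.4%, 5.34 to 20.5) against 10.2%, and for HCT116 2 of 22 (9.09%, 1.12 to 29.2) against 1.91%. Outside the 9 bins chromosome 8 still had 250 of 1090 strong peaks SKBR3-only (22.9%, 20.5 to 25.5), and chromosome 17 had 303 of 1745 (17.4%, 15.6 to 19.2).

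Pileup counts tags whatever their source, so the bins were also compared at equal strength. At a pileup of 20 to 29, 63.2% of 68 peaks in the raised bins were SKBR3-only (50.7 to 74.6), against 17.1% of 9431 elsewhere. At 50 or more the shares were 18.6% of 102 (11.6 to 27.6) and 2.67% of 1424 (1.90 to 3.64). Fold enrichment divides by the local background. Among strong peaks with a fold of 8 to 10, 58.8% of 51 in the raised bins (44.2 to 72.4) and 20.6% of 4573 elsewhere were SKBR3-only. At a fold of 15 or more these shares were 20.4% of 54 (10.6 to 33.5) and 6.35% of 4946 (5.68 to 7.06). The raised bins thus had the higher SKBR3-only share by either measure of strength. At a fold of 5 to 8 the intervals overlapped, with 37.5% of 80 (26.9 to 49.04) and 28.6% of 4175 (27.2 to 29.9).

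**Figure D3:**
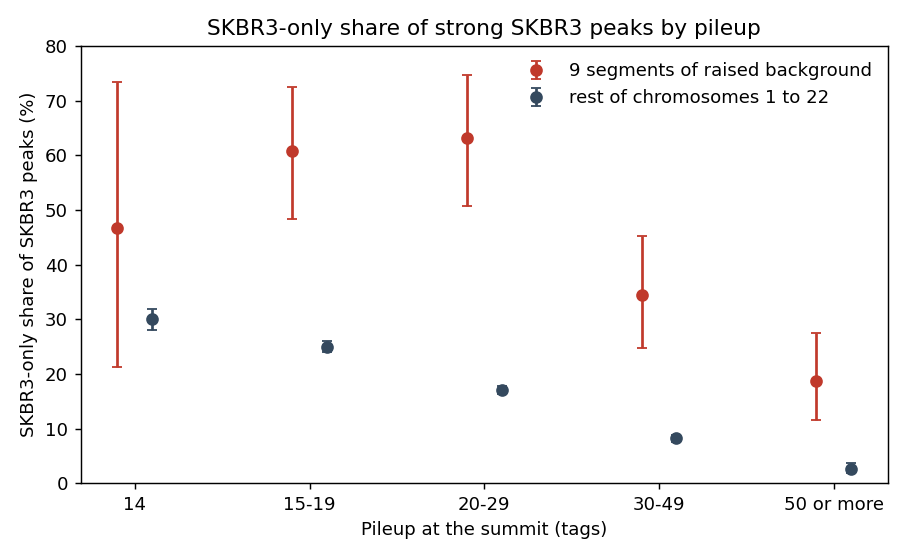
SKBR3-only share of SKBR3 peaks in percent (vertical) by pileup at the summit in tags (horizontal), for 9 bins of raised background and for the rest of chromosomes 1 to 22; bars are exact 95% intervals. The share outside the raised bins goes from 30.01% at the lowest pileup to 2.67% at the highest, and it is higher inside them in each class, with overlapping intervals at a pileup of 14 only.

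The relation was graded over the genome and not limited to the raised bins. Over bins with at least 10 strong peaks, the SKBR3-only share was 12.1% (10.4 to 13.9) where the adjusted background lay more than 1 SD below the other lines and 13.5% from there up to 0. It was 17.8% from 0 to 1 SD, 24.99% from 1 to 2 SD and 28.0% (25.1 to 31.1) from 2 to 3 SD. Across 893 bins Pearson's r was 0.42 and Spearman's rho 0.40; without the raised bins r was 0.37. These are descriptions across bins of 1 library: background and calls come from the same tags, and neighbouring bins are not independent. When the background was taken only from peaks with a pileup under 14, none of them a member, 5 of 805 bins passed 3 SD. Of these, 4 lay on chromosome 8 and 1 on chromosome 20, at 49 to 50 Mb, and 39.6% of their 270 strong peaks were SKBR3-only, against 17.7% elsewhere. The bin of chromosome 17 at 37 to 38 Mb did not pass by that measure, at 0.28 on the log2 scale or 1.40 SD, from 50 SKBR3 peaks.

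**Figure D4:**
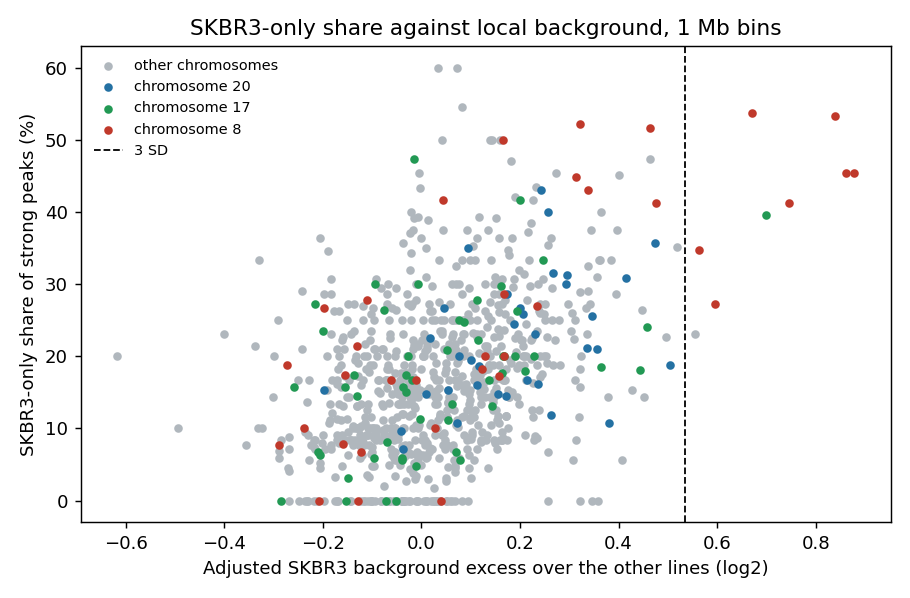
SKBR3-only share of strong peaks in percent (vertical) against the adjusted excess of the SKBR3 background on the log2 scale (horizontal); each point is 1 of 893 bins of 1 Mb with at least 10 strong peaks, and the dashed line marks 3 SD. Of the 9 bins right of the line, 7 are on chromosome 8, and many bins with high shares lie left of it.

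Of the 10 SKBR3-only peaks with the highest pileup, 8 lay in the raised bins, 5 on chromosome 8 and 3 on chromosome 17. Of the 100 highest, 20 lay there, against 2.76% of all members. The bins were marked by a background computed from the pileup and fold of the same SKBR3 peaks. Pileup in them is thus not independent of how they were chosen. High pileup went with these bins in both classes. The median pileup in them was 24 for SKBR3-only and 42.5 for shared strong peaks, against 19 and 24 elsewhere. The highest was on chromosome 8, 124007300 to 124008105, with a pileup of 91 and a fold of 17.2; its nearest peak in another line was 324 bp away, in HCT116. Another at 124178402 to 124178874 had a pileup of 83 and a fold of 19.1. Others on that chromosome lay at 124585140 to 124585816 (pileup 81, fold 13.04), 81663401 to 81663957 (84 and 7.29) and 124544074 to 124544397 (70 and 9.91).

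Folds thus ranged from below to well above the members' median of 9.61 among these peaks. The peak at chromosome 17, 37843196 to 37843722, had a pileup of 88 and a fold of 10.7, and T47D, HCT116 and RKO each had a peak within 350 bp of it. At 37892194 to 37892506 the pileup was 83 and the fold 4.12, and at 37833438 to 37834359 they were 79 and 3.60. The 2 outside the raised bins were chromosome 10, 75631189 to 75632277, with a pileup of 77 and a fold of 9.44, and chromosome 1, 227951591 to 227952250, with 68 and 10.9. Of the 57 members with a pileup of at least 50, 19 lay in the raised bins. By chromosome, 20 lay on chromosome 8, 14 on chromosome 17, 8 on chromosome 20 and 15 on other chromosomes. Of all 1526 SKBR3 peaks of that pileup, members and shared together, 102 lay in the raised bins.

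The 1 Mb around ERBB2, chromosome 17 at 37 to 38 Mb, held more SKBR3-only peaks than any other 1 Mb bin: 32 of its 81 strong peaks (39.5%, 28.8 to 51.0). SKBR3 had 131 peaks of any strength there, T47D 82, RKO 58 and HCT116 38. From 37800001 to 37900000 there were 14 members beside 14 shared strong peaks, and from 37300001 to 37400000 there were 8 beside 14, so both classes were dense in the same windows. Their pileups ran from 14 to 88 with a median of 31.5, and their folds from 2.22 to 13.3 with a median of 4.73, less than the median of 9.61 over all members. The 49 shared strong peaks of the bin had a median pileup of 62 and a median fold of 8.27. Members of high pileup and low fold thus prevailed there. The first place of this bin by count rests on the pileup threshold, and no rank with a threshold on fold is given. With strength taken as a fold of at least 8, the 9 raised bins together held 1.34% of SKBR3-only peaks, against 2.76% by pileup. The median background at the SKBR3 peaks of the bin was 16.5 times the lowest in the list, against 6.33 to 6.68 times in the other lines. These multiples are not adjusted for called signal nearby. On the log2 scale the SKBR3 excess in this bin was 1.73 unadjusted and 0.70 adjusted, and 0.28 from peaks with a pileup under 14. Between the member ending at 37843722 and the one starting at 37873200 no SKBR3-only strong peak was called.

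The next bins by count were not all of raised background. Chromosome 8, 128 to 129 Mb, the interval of the MYC oncogene, held 28 SKBR3-only peaks among 65 strong ones (43.1%, 30.8 to 56.0) with an adjusted background excess of 0.34. Chromosome 20, 48 to 49 Mb, held 27 of 90 (30%) and 56 to 57 Mb 25 of 58 (43.1%), with excesses of 0.29 and 0.24. Chromosome 5, 149 to 150 Mb, held 26 of 75 (34.7%, 24.0 to 46.5) with an excess of 0.18. None of these 4 bins passed 3 SD after adjustment, but in all of them the SKBR3 background lay above that of the other lines. Unadjusted excesses were 0.57, 1.28, 1.28 and 1.51 in the same order.

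SKBR3-only peaks lay beside each other more often than their share of strong peaks gives. For 1578 of the 5142 members (30.7%, 29.4 to 31.97) the nearest strong SKBR3 peak was also SKBR3-only, against the 17.9% of strong peaks that were. For shared peaks the nearest was SKBR3-only in 16.6% (16.1 to 17.1). Without the 9 raised bins the value was 30.2% (28.97 to 31.5), and without chromosomes 8, 17 and 20 it was 29.3% where 17.04% of strong peaks were SKBR3-only. The clustering was thus of like size away from these positions. T47D-only peaks with a pileup of at least 14 were nearest to another T47D-only peak in 21.9% (20.5 to 23.4) against 9.62% of all such peaks, and RKO-only peaks in 19.3% (17.5 to 21.2) against 10.2%, so lying together was not particular to SKBR3.

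The clustering faded with distance. Among strong peaks with summits within 2 kb of a member's summit, 37.8% were SKBR3-only. The share was 28.4% at 2 to 10 kb, 24.8% at 25 to 50 kb, 22.1% at 100 to 250 kb and 20.7% at 500 to 1000 kb. Around shared peaks it was 18.6% within 2 kb, 22.3% at 2 to 10 kb and between 17.5% and 18.2% at the longer distances. Pairs share peaks, so these shares carry no interval.

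**Figure D5:**
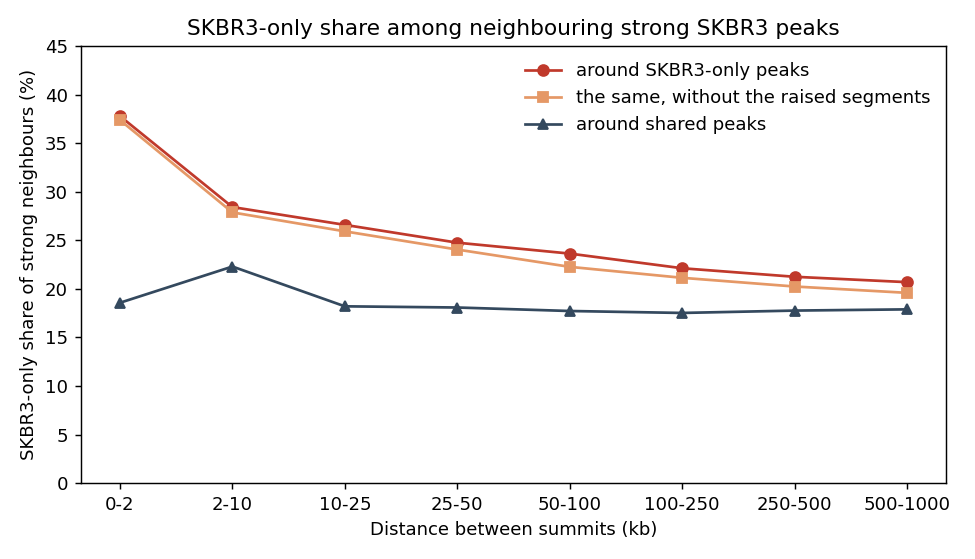
SKBR3-only share of neighbouring strong SKBR3 peaks in percent (vertical) by distance between summits in kb (horizontal), around SKBR3-only peaks, the same without the raised bins, and around shared peaks. Around SKBR3-only peaks the share falls from 37.8% to 20.7%; around shared peaks it stays between 17.5% and 22.3%.

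Joined where each lay within 25 kb of the next, the members formed 3752 groups. Of these 2865 were single peaks and 887 held at least 2, which together took in 2277 members (44.3%). There were 42 groups of 5 or more, with 256 members. No such grouping of shared or of all strong peaks is set beside these counts, so they show no trait of the members. The 13 largest, with 7 to 10 members each, lay on chromosomes 1, 2, 5, 8, 10, 17, 20 and 21, and 2 of them touched a raised bin.

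The largest group had 10 members on chromosome 2, from 20379604 to 20436045, with pileups of 16 to 36 and a median fold of 4.05. It also held 9 shared strong peaks, so SKBR3-only and shared regions were interleaved there. T47D had 10 peaks in it, RKO 5 and HCT116 3. The group lies in the bin from 20 to 21 Mb, which was not called raised but came near it. The adjusted background excess of that bin was 0.518, just under the cutoff of 0.534, and the unadjusted excess was 1.35. On chromosome 10, from 80998425 to 81048339, 9 members had pileups of 16 to 48 beside 6 shared strong peaks. T47D had 7 peaks in that group, and HCT116 and RKO had 0. Chromosome 17 had 2 large groups inside the ERBB2 interval, 9 members from 37790789 to 37843722 and 8 from 37873200 to 37907044, with median folds of 3.99 and 3.33.

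Other groups held almost no shared peak. On chromosome 17, from 79938542 to 79976803, SKBR3 had 8 members with pileups of 18 to 39 and 11 peaks in all, and each other line had 1. On chromosome 8, from 74219801 to 74265636, 7 members had pileups of 15 to 53; SKBR3 had 9 peaks there, T47D 1, and HCT116 and RKO 0. On chromosome 20, from 49733857 to 49778226, 7 members had pileups of 16 to 26, with 10 peaks in SKBR3, 1 each in T47D and RKO and 0 in HCT116. On chromosome 21, from 45323291 to 45397512, none of the strong SKBR3 peaks was shared, and the 7 members reached a pileup of 41. T47D and RKO had 3 peaks each in that stretch and HCT116 2, and these overlapped no strong SKBR3 peak. The members themselves covered 1820 to 3195 bp of each of these 4 groups, so most of each stretch was not called. The groups on chromosomes 8 and 20 lie in bins, 74 to 75 Mb and 49 to 50 Mb, that passed 3 SD when the background was taken from weak peaks.

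The longest runs of consecutive strong SKBR3 peaks that were all SKBR3-only spanned wider stretches. The longest had 11 members on chromosome 7, from 37360488 to 37734698, with pileups of 14 to 48, a median of 24 and folds of 7.34 to 20.8. Across these 374 kb SKBR3 had 29 peaks of any strength, T47D 2, RKO 2 and HCT116 0. The run touched no bin called raised, and bins with fewer than 10 peaks in any line were not compared. A run of 9 on chromosome 20, from 56385961 to 56563137, had 17 SKBR3 peaks against 1 in T47D and 0 in both colorectal lines, with pileups of 14 to 41. Runs of 8 were found on chromosome 20 from 22788357 to 23167779, on chromosome 22 from 48268589 to 48982233 and on chromosome 8 from 121634946 to 121752982, the last in a raised bin. The median fold was 11.1 in the run of 11, 7.75 in the run of 9, and 10.4, 13.6 and 8.38 in the runs of 8, against 9.61 over all members. These stretches were picked for their runs and test nothing.

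Most SKBR3-only peaks lay within 10 kb of a peak of another line. Shared peaks overlap such a peak by the rule, and distances are not given for any other set. No level thus stands beside the distances below. The nearest peak of any other line was a median of 3150 bp away, edge to edge (interquartile range 1150 to 8630 bp). It was within 500 bp for 607 members (11.8%), within 1 kb for 1123 (21.8%) and within 10 kb for 4021 (78.2%). By line the median distance was 4296 bp to T47D, 7691 bp to RKO and 10560.5 bp to HCT116, an order that is also that of the lengths of these lists.

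For 134 members (2.61%, 2.19 to 3.08) no peak of another line lay within 50 kb, and their median pileup was 18. The most distant was on chromosome 6, 114864857 to 114865162, with a pileup of 16 and 431857 bp to the nearest peak of another line. On chromosome 7, 70879454 to 70879919, a peak with a pileup of 30 and a fold of 16.2 stood 176240 bp from the nearest. Within 25 kb of a member, other peaks of SKBR3 numbered 5.18 on average, against 4.44 around shared strong peaks. Peaks of T47D not overlapping the region numbered 3.33 against 3.44, of RKO 2.44 against 2.74 and of HCT116 1.68 against 1.74. The surroundings of members thus held more SKBR3 peaks and slightly fewer peaks of each other line than those of shared peaks.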

How the data were processed

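ATAC-seq of 4 cell lines, 1 library of single-end 60 bp reads each, had been processed by the authors with Bowtie2 2.4.1 and MACS3 3.0.0b3 on hg19, per the submitters' processing notes. Per the file headers, peaks were called per library without a control, at a q cutoff of 0.1, with 1 tag kept per position and a local background over 10 kb; no shift to the transposase cut site is named, so summits mark extended tags. Read filters are not given in the sources used here. Each deposited row gives the pileup signal at the summit, a fold enrichment ratio, a −log10 p-value and a −log10 q-value. These are the authors' values of each peak within its own list, not scaled between libraries.

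Peaks on chromosomes 1 to 22 were compared by overlap of at least 1 bp. The background under a peak was taken as (pileup + 1) / fold − 1, log2 values were regressed within each list on the log2 sum of pileup × width within 5 kb, and median residuals per 1 Mb bin (at least 10 peaks in every line) were centred, and the median over the remaining 3 lines was subtracted. Peaks at the lowest background of a list were left out. Intervals are exact Clopper-Pearson 95%. No p-value is given: each line has 1 library, and peaks of 1 library are not replicates. Python 3.11.15, NumPy 2.4.6, pandas 2.3.3 and SciPy 1.17.1 were used. The overlap and neighbour steps were tested on simulated data. The background step was tested on real peaks with a planted rise larger than the 3 SD cutoff, so recovery of bins near the cutoff was not tested. Named are the 10 members of highest pileup, the groups with most members (ties kept), and, chosen after their values were seen, the longest runs, the most distant members and bins with most members. Genome sequence and hg19 genes were not used here, so transcription start sites, motifs and gene lists were not analysed. The members and lists were chosen with earlier results of these data known.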

Additional observations from a re-analysis of the deposited data

Results flagged for a closer look

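Strong SKBR3-only peaks were also called on sequences that the comparisons leave out. On chromosome X 74 of 495 strong SKBR3 peaks (14.9%, exact 95% interval 11.9 to 18.4) overlapped no peak of another line, and on unplaced contigs and the decoy sequence 23 of 220 (10.5%, 6.74 to 15.3) did. They are listed because no comparison above uses these sequences, and with no control library no level is set against them.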

How the results depend on the processing

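The SKBR3-only share of strong peaks followed the definition of strong and of overlap. It was 22.9% at a pileup of at least 10, 12.8% at 20 and 18.5% with strength taken as −log10 q of 10 or more. The share was 15.8% with peaks of other lines widened by 500 bp, 27.3% with overlap of at least 50% of the SKBR3 peak required, 19.6% with windows of 100 bp on each side of the summits and 18.9% without the HCT116 list. The median width was 270 bp (SKBR3-only) and 341 bp (shared) at a pileup of at least 10, and 353 and 440 bp at 20; it was 340 bp for shared peaks weighted to equal pileups. The share of members whose nearest strong peak was SKBR3-only was 33.7% at a pileup of at least 10 and 24.1% at 20 (where 22.9% and 12.8% of strong peaks were SKBR3-only), 27.5% with the nearest taken at least 1 kb away and 29.3% without chromosomes 8, 17 and 20. The share of members in raised bins was 7.76% with bins over 2 SD, 9.43% with an unadjusted excess of at least 1, 2.06% and 4.04% at pileups of at least 10 and 20, 2.08% with the background from peaks under a pileup of 14 and 1.34% with strength taken as a fold of at least 8. In each of these the share of shared peaks there was lower (0.576% to 4.19%). Chromosome 8 held 6.94% of members, and 5% without the raised bins. The cause of these shifts was not tested beyond what each setting changes by construction. The other 27 of 50 alternative values stayed within the 95% interval of the value reported. Most of these 27 are chromosome shares recomputed without the raised bins. On a chromosome without a raised bin such a share could hardly change by construction, so it is no sign of stability. Among the remaining alternative values more moved than stayed. The settings with a fold of at least 8, the background from weak peaks and the omission of 3 chromosomes were chosen after seeing the data. The alternatives on transcription start sites, motifs and gene lists were not run. Depth limits the absence of a call most in HCT116. No paired analysis was possible because each line has 1 library.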
